A study of Mus musculus with 19 samples.

Results

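The 45 genes described here are a set of cell cycle genes that was measured by RNA sequencing in whole mouse liver: 7 genes of G1 (cyclins D and E, Cdk2 and E2f1), 11 genes of S phase (the MCM helicase, the replication clamp and the enzymes that make DNA building blocks) and 27 genes of G2 and mitosis. They were chosen by gene symbol, and all 45 were found among the 35976 rows of the count table. The livers came from 19 mice, 1 library per mouse, in 3 genotypes at Pkd1, which encodes polycystin-1: 7 WT, 6 Het and 6 Homo. The mice are described as littermates, every mouse had received AAV-Cre (an adeno-associated virus that delivers Cre recombinase), and every mouse was on the same model of fatty liver disease, a Western diet with the liver toxin carbon tetrachloride (CCl4), for 3 months. The labels name neither the promoter that drives Cre, nor the cells in which Pkd1 recombined, nor age or sex, and an untreated liver is not analysed here. The comparison asks whether livers that differ at Pkd1 differ in RNA of genes that cells use to divide.

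Cells commit to division in G1, when D-type cyclins with Cdk4 or Cdk6, and then E-type cyclins with Cdk2, phosphorylate the retinoblastoma protein and release E2F factors. E2F factors switch on the genes of DNA synthesis, and a later wave of transcription through the DREAM, B-Myb and FoxM1 complexes supplies the genes of G2 and mitosis. Most cells of an adult liver are out of the cycle, and hepatocytes, bile duct cells, macrophages and fibroblast-like cells can all re-enter it after injury, so RNA of these genes in whole tissue does not say which cells made it.

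The libraries held from 25.8 M to 42.1 M counted reads. Levels are given as CPM, the counts of a gene scaled to a common library size after TMM normalization. The counts of the mitosis genes Top2a, Hmmr and Bub1b were even in every library, and those of Bub1 were multiples of 3. Whether reads were counted more than once in these rows was not tested. Their levels, p-values and weight in sums may therefore not compare with those of other genes. The row of Pkd1 had 405 CPM ± 38.6 (SD, n = 7) in WT, 390 CPM ± 46.2 (n = 6) in Het and 357 CPM ± 19.7 (n = 6) in Homo. Its log2 fold change in Homo against WT was -0.18 ± 0.08 (SE, adjusted p = 0.315 in edgeR's quasi-likelihood test), and the labels do not say which part of the gene is deleted, so that a count over the whole gene is a weak check of the genotype. Hepatocyte markers were abundant in every library, with albumin (Alb) between 7898 and 13650 CPM. Whether libraries of a genotype came from separate litters or preparation days is not given, and the mice are told apart below by the number that closes each sample title, whose meaning the labels do not state.

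Across the 45 genes the levels per kilobase of exon differed widely. In WT livers the thymidine kinase gene Tk1 had the highest, at 5.16 CPM per kilobase ± 1.17 (SD, n = 7), followed by the D-type cyclin Ccnd1 at 4.85 ± 1.36, with overlapping spreads. Ccnd3 (3.92 CPM per kilobase), Mcm7 (3.14), Ccne2 (2.67), Pcna (2.49) and Ccnd2 (2.00) came next. Among the mitosis genes Mki67, which encodes the proliferation marker Ki-67, stood highest at 0.857 CPM per kilobase ± 0.183, and 9 of the 45 genes were higher. The mitotic cyclin gene Ccnb1 was the lowest at 0.0107 CPM per kilobase. Depth limits the mitosis genes most: 6 of the 27, Ccnb1, Ccnb2, Cdc20, Aurkb, Plk1 and Ube2c, had between 0 and 20 counts per library and did not pass the filter on low counts. The other 39 members, 7 of G1, 11 of S and 21 of mitosis, were tested together with all 16463 genes that passed. Some of the tested mitosis members were also scarce, such as Bub1 with 0 to 18 and Foxm1 with 4 to 18 counts per library.

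The comparison of Homo with WT livers called 1 of the 39 tested members at an adjusted p under 0.05, Ccnd1, where 0.48% of all genes tested were called in either direction. At an unadjusted p under 0.05, 8 of the 39 were higher in Homo and 0 were lower, where 6.37% of all genes tested were higher and 6.52% lower by that measure. The members higher at this level were Ccnd1 and Ccnd2 of G1, Mcm6 and Rrm1 of S phase, and Mki67, Racgap1, Top2a and Kif23 of mitosis. Apart from Ccnd1, these 7 did not pass the adjusted threshold and are given below by their values. The 3 phases differed in their medians. The median log2 fold change was 0.04 over the 7 G1 members, 0.11 over the 11 S members and 0.33 over the 21 tested mitosis members, beside 0.0019 over all genes tested. Fold changes above 0 were found for 5 of 7, 9 of 11 and 16 of 21 members, beside 50.3% of all genes tested. In whole tissue more cells of a kind and more RNA per cell cannot be told apart, for this and every value below.

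**Figure D1:**
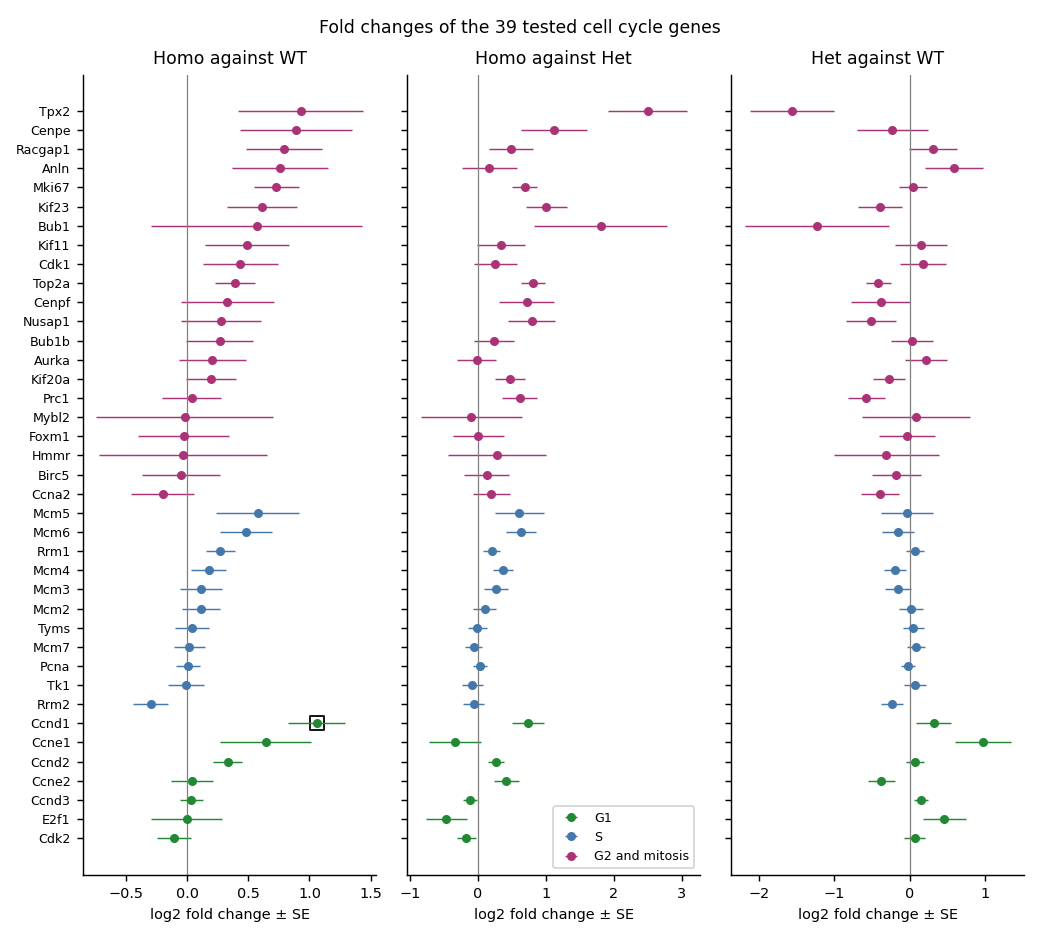
Log2 fold changes (x axis, points, with bars of 1 standard error) of the 39 tested cell cycle genes (y axis, grouped by phase and ordered within a phase by the Homo against WT value), in 3 panels for Homo against WT, Homo against Het and Het against WT. The square marks Ccnd1, the 1 member with an adjusted p under 0.05, and the mitosis genes lie mostly right of 0 in the Homo against WT and Homo against Het panels.

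Ccnd1 encodes cyclin D1, the D-type cyclin that growth signals induce in regenerating hepatocytes. In WT livers it ranged from 13.2 CPM over a median of 21.6 to 31.6 CPM. In Het livers it ranged from 15.8 CPM over a median of 33.1 to 37.5 CPM. In Homo livers it ranged from 34.7 CPM over a median of 45.8 to 71.5 CPM. All 6 Homo livers were above all 7 WT livers, and 4 of 6 were above the highest Het liver. The Het livers fell apart into mice 6 and 19, at 16.0 and 15.8 CPM, within the WT range, and 4 mice at 32.7 to 37.5 CPM, above every WT liver.

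Ccnd1 rose 2.08-fold in Homo against WT, a log2 fold change of 1.06 ± 0.23 (SE, adjusted p = 0.045). This call sits near its threshold. It ended in 13 of 19 fits that each left out 1 library (WT mice 1, 2, 3, 11 or 13, Het mice 7, 14 or 20, or Homo mice 10, 15, 16, 17 or 18), with an adjusted p between 0.029 and 0.118 and a log2 fold change between 0.91 and 1.15 over all 19. The WT mice numbered 1 to 3 had 21.6, 19.2 and 13.2 CPM of Ccnd1, at or below the WT median; without them the log2 fold change was 0.84 with an adjusted p of 0.349, and with the mouse number as a covariate it was 0.89 with an adjusted p of 0.249. Among mice 8 to 13 alone, where both genotypes occur, it was 0.56 with an adjusted p of 0.68. This subset holds only Homo mice 8 and 10 and WT mice 9, 11, 12 and 13, and 2 of all 16662 genes tested were called in it. A member not called there may have been missed for lack of livers. Against Het livers the log2 fold change of Ccnd1 in Homo was 0.73 ± 0.24 (adjusted p = 0.455), and in Het against WT it was 0.32 ± 0.23 (adjusted p = 0.725).

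The gene lies on the minus strand of chromosome 7 (GRCm38, 144929931 to 144939925), and 23.4% of its exon bases are also exon bases of LTO1 on the other strand, a gene listed as Oraov1 in the count table. The strand setting of the counting is not given in the sources used here, so reads from the shared bases cannot be assigned with certainty. Over 10% of exon bases were shared with other genes for 7 of the 45 members. Besides Ccnd1 these were Kif20a (29.3%), Ube2c (22.8%), Ccne2 (17.4%), Mcm7 (12.6%), Ccna2 (12.5%) and Prc1 (11.1%), whose values carry the same limit. The Oraov1 row had 19.7 CPM ± 3.66 (SD, n = 7) in WT, 22.5 CPM ± 5.37 (n = 6) in Het and 31.2 CPM ± 4.998 (n = 6) in Homo. Its log2 fold change in Homo against WT was 0.66 ± 0.15, with an adjusted p of 0.0579. Values of both rows thus ran in the same direction, and the part that shared reads have in either was not tested.

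Ccnd2, which encodes cyclin D2, had a median of 19.6 CPM in WT (14.7 to 21.0), 20.1 CPM in Het (15.3 to 22.6) and 23.0 CPM in Homo (17.9 to 29.5). All Homo livers but 1 were above the highest WT liver, and Homo mouse 8 lay within the WT range. Its log2 fold change in Homo against WT was 0.33 ± 0.12 (adjusted p = 0.235). Cyclin D3, from Ccnd3, was at 34.4 CPM ± 4.23 (SD, n = 7) in WT, 38.2 CPM ± 4.22 (n = 6) in Het and 35.2 CPM ± 4.13 (n = 6) in Homo, differences that lay within the spread of the livers. The cyclin E gene Ccne1 was scarce, with 8 to 55 counts per library. It had a median of 0.718 CPM in WT (0.214 to 1.06), 1.25 CPM in Het (0.661 to 1.76) and 0.780 CPM in Homo (0.575 to 1.56). The 3 lowest WT values were those of mice 1, 2 and 3, at 0.252, 0.214 and 0.322 CPM. For Ccne1 the log2 fold change was 0.64 ± 0.37 in Homo against WT (adjusted p = 0.483) and 0.98 ± 0.37 in Het against WT (adjusted p = 0.495). Cdk2, the kinase partner of the E cyclins, Ccne2 and E2f1 had log2 fold changes of -0.10, 0.04 and -0.0015 in Homo against WT, so that within G1 only Ccnd1 passed the test.

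**Figure D2:**
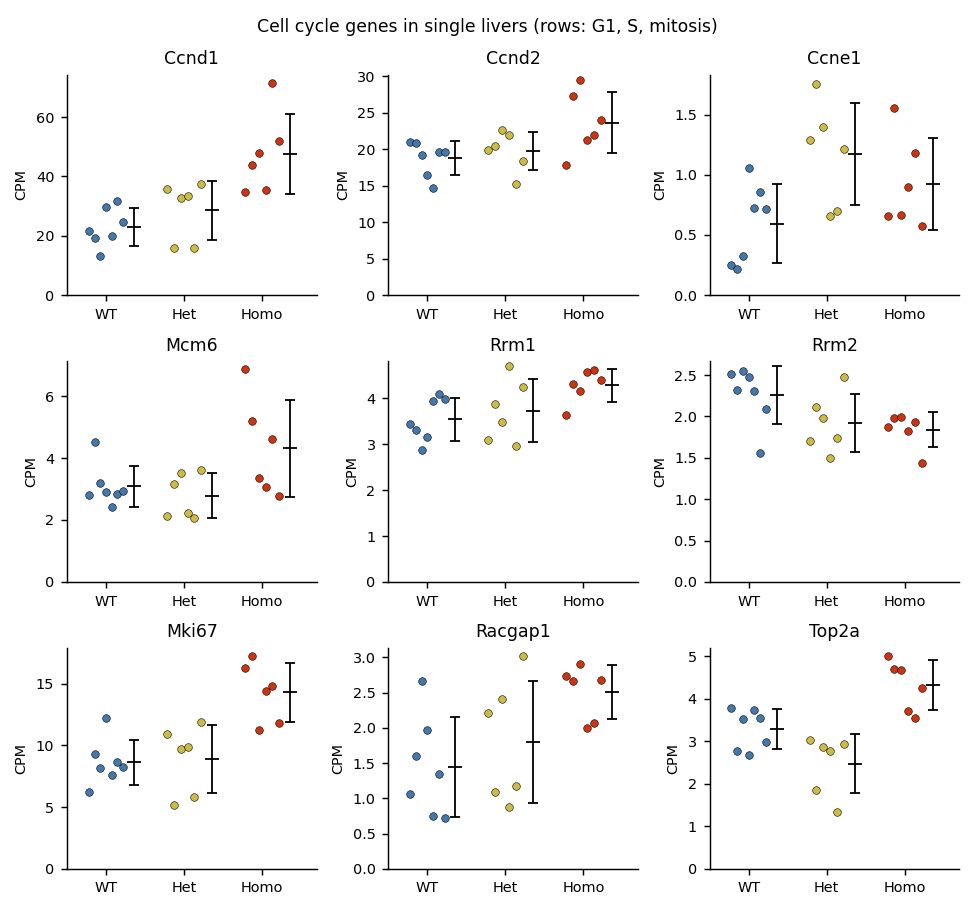
CPM (y axis, linear, from 0) of 9 cell cycle genes in single livers (points) by genotype (x axis), with the mean and SD of each genotype beside the points; the rows hold genes of G1, S phase and mitosis. Ccnd1 in the 6 Homo livers lies above all WT livers, and Top2a in the 6 Homo livers lies above all Het livers.

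In S phase no member was called in Homo against WT, and the largest fold changes were those of helicase subunits. The MCM helicase, a ring of the products of Mcm2 to Mcm7, unwinds DNA at the replication fork. Mcm6 had a median of 2.92 CPM in WT (2.42 to 4.52), 2.68 CPM in Het (2.07 to 3.62) and 3.99 CPM in Homo (2.78 to 6.88). Homo mice 8, 10 and 17, at 6.88, 5.19 and 4.62 CPM, were above every other liver, while the other 3 Homo livers lay among the WT values. Mcm6 had a log2 fold change of 0.48 ± 0.21 in Homo against WT (adjusted p = 0.347) and 0.63 ± 0.22 in Homo against Het (adjusted p = 0.551). Mcm5 had 0.58 ± 0.34 (adjusted p = 0.489) in Homo against WT, and Mcm2, Mcm3, Mcm4 and Mcm7 had 0.11, 0.11, 0.18 and 0.02. The 6 subunits of 1 ring thus had fold changes between 0.02 and 0.58, and none passed the test.

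The genes for nucleotide supply and for the replication clamp did not pass the test in Homo against WT either. Rrm1, the large subunit of ribonucleotide reductase, had a median of 3.45 CPM in WT (2.87 to 4.10), 3.68 CPM in Het (2.97 to 4.72) and 4.36 CPM in Homo (3.63 to 4.62), with a log2 fold change of 0.27 ± 0.12 in Homo against WT (adjusted p = 0.352). Rrm2, the small subunit that is limiting for S phase, had the opposite sign: a median of 2.32 CPM in WT (1.56 to 2.55), 1.86 CPM in Het (1.502 to 2.48) and 1.91 CPM in Homo (1.44 to 1.99), with a log2 fold change of -0.30 ± 0.15 (adjusted p = 0.399). For Rrm2 the WT livers other than mouse 12 were all above the highest Homo liver. Pcna, the sliding clamp, Tk1 and Tyms, the thymidylate synthase gene, had log2 fold changes of 0.01, -0.01 and 0.04. The summed level of the 11 S members was 60.7 to 76.5 CPM in WT, 64.9 to 77.2 CPM in Het and 67.0 to 79.2 CPM in Homo, and the 3 genotypes overlapped over most of this range.

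Promoter sequence is shown for Mcm6 and Rrm1, which had the lowest p-values of the S members when Homo was set against WT, as background to the wave of transcription they belong to. The windows run from 250 bases before to 50 bases after the annotated start (RefSeq, GRCm38.p6), and 36 of the 45 members had one. Capitals mark matches on either strand to the CHR element (TTTGAA), the CCAAT box (CCAAT) and an E2F motif (TTTCCCGC, TTTCGCGC, TTTGCCGC or TTTGGCGC). Of the 3 E2F matches in Mcm6, 2 overlap on opposite strands.
Mcm6 promoter, chr1:128359656-128359955, minus strand: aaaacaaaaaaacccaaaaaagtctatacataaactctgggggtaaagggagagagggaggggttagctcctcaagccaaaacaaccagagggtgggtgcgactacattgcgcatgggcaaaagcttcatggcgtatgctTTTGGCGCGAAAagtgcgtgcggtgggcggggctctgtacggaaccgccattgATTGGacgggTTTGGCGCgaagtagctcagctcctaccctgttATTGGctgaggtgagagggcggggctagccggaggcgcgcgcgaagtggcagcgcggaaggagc
Rrm1 promoter, chr7:102441445-102441744, plus strand: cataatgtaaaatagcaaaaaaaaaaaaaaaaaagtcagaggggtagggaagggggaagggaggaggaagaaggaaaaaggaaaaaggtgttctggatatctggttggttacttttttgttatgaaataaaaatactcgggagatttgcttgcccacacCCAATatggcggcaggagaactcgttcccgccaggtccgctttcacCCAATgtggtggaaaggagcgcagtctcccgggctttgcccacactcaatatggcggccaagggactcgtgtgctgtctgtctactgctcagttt
An E2F match was found in 4 of 11 S windows (36.4%), 1 of 5 G1 windows and 1 of 23 mitosis windows (4.35%), beside 2.26% of 32851 windows of all genes. The Mcm6 window held E2F matches and the Rrm1 window held CCAAT boxes with no E2F match.

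The mitosis members had the highest median fold change of the 3 phases in Homo against WT, although none passed the adjusted threshold. Mki67 encodes Ki-67, which coats mitotic chromosomes and is the common marker of cycling cells. It ranged from 6.24 CPM over a median of 8.28 to 12.2 CPM in WT, from 5.17 over 9.79 to 11.9 CPM in Het and from 11.2 over 14.6 to 17.3 CPM in Homo. The Homo values were above 6 of 7 WT livers, and WT mouse 9, at 12.2 CPM, lay above Homo mice 15 and 18. Its log2 fold change in Homo against WT was 0.73 ± 0.18 with an adjusted p of 0.0832 in edgeR. The same gene was called by DESeq2, with an adjusted p of 0.0114, where DESeq2 called 305 of all genes and edgeR 79. It was also called in the fit of Homo and WT libraries alone, with an adjusted p of 0.0368, and at an adjusted p under 0.10. In the other 7 of 10 alternative settings Mki67 was not called, among them limma-voom, the mouse number as a covariate and mice 8 to 13 alone. With 1 library left out it was called in 2 of 19 fits.

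Top2a, topoisomerase II alpha, which untangles sister chromatids, ranged from 2.67 over 3.52 to 3.78 CPM in WT, from 1.35 over 2.82 to 3.03 CPM in Het and from 3.55 over 4.47 to 5.004 CPM in Homo. Homo livers lay above all Het livers and overlapped the WT livers, the Het mice 6 and 19 being lowest at 1.86 and 1.35 CPM. Top2a had a log2 fold change of 0.39 ± 0.17 in Homo against WT (adjusted p = 0.326), -0.41 ± 0.17 in Het against WT (adjusted p = 0.516) and 0.81 ± 0.17 in Homo against Het (adjusted p = 0.0644). Racgap1, a GTPase-activating protein of the central spindle, ranged from 0.718 over 1.35 to 2.67 CPM in WT, from 0.871 over 1.69 to 3.01 CPM in Het and from 2.00 over 2.67 to 2.90 CPM in Homo. Of the 6 Homo livers 3 were above the highest WT liver and 3 lay within the WT range, with a log2 fold change of 0.79 ± 0.31 (adjusted p = 0.284). Its partner at the central spindle Kif23 had 0.61 ± 0.29 (adjusted p = 0.371), the anillin gene Anln 0.76 ± 0.39 (adjusted p = 0.423), the kinetochore motor gene Cenpe 0.89 ± 0.46 (adjusted p = 0.424) and the spindle assembly factor gene Tpx2 0.93 ± 0.51 (adjusted p = 0.455). The kinase gene Cdk1 had 0.44 ± 0.30, and Ccna2, which encodes cyclin A2, had the opposite sign at -0.20 ± 0.26. Foxm1 and Mybl2, which encode transcription factors that drive this group, had -0.03 ± 0.37 and -0.02 ± 0.72.

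The promoters of Mki67, Top2a and Racgap1, which had the lowest p-values of the mitosis members in that comparison, are shown because the CHR element and the CCAAT box are the usual elements of mitotic genes, with the same windows and capitals as above.
Mki67 promoter, chr7:135716330-135716629, minus strand: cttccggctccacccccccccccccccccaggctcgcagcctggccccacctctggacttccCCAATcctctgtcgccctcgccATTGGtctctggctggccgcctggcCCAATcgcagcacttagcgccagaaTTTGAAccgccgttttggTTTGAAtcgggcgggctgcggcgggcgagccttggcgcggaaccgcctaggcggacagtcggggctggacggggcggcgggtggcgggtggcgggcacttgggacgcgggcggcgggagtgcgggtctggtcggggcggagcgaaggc
Top2a promoter, chr11:99024140-99024439, minus strand: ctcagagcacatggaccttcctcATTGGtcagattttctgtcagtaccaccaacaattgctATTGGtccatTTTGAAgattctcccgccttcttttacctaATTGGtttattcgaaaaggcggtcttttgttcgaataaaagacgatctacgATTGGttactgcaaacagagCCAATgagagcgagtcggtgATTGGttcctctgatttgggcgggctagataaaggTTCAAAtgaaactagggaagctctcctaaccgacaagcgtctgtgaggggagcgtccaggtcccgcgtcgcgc
Racgap1 promoter, chr15:99651607-99651906, minus strand: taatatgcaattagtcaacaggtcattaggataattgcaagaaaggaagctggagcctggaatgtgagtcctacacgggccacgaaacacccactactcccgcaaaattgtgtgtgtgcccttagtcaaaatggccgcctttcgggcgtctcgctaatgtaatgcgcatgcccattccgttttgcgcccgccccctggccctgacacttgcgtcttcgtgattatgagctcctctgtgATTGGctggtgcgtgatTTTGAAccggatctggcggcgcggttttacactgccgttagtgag
All 3 windows held both elements. Over the group, 17 of 23 mitosis windows held a CHR (73.9%) against 1 of 11 S windows, 0 of 5 G1 windows and 17.9% of the windows of all genes. A CCAAT box was found in 19 of 23 mitosis windows (82.6%), 9 of 11 S windows (81.8%) and 37.4% of all windows. Both elements together were in 16 of 23 mitosis windows (69.6%) and in 6.95% of all windows. These are matches of letters, and binding was not measured.

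**Figure D3:**
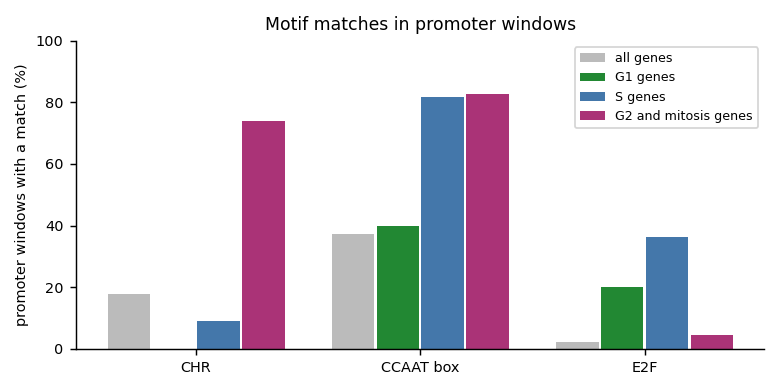
Share of promoter windows with at least 1 match (y axis, percent, from 0) for 3 motifs (x axis), in all genes and in the G1, S and mitosis members. CHR matches are in 73.9% of mitosis windows and 17.9% of all windows, and E2F matches in 36.4% of S windows and 2.26% of all windows.

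Summed over all 27 mitosis members, the level was 32.7 CPM ± 3.95 (SD, n = 7) in WT, 29.6 CPM ± 5.64 (n = 6) in Het and 45.2 CPM ± 5.05 (n = 6) in Homo. The Homo livers ranged from 39.3 to 51.6 CPM, above the WT range of 27.7 to 38.7 and the Het range of 21.3 to 35.3 CPM. The sum over other mitosis genes, given below, overlapped between the genotypes. Mki67 made up 31.5% of the sum in Homo and 26.2% in WT. Without it the Homo livers, at 27.5 to 34.5 CPM, still lay above the WT livers, at 19.4 to 26.6 CPM, and the Het livers, at 16.1 to 24.0 CPM. Within mice 8 to 13 the Homo sums were 50.8 and 51.6 CPM and the WT sums 27.7 to 38.7 CPM, and within mice 14 to 20 the Homo sums were 39.3 to 45.6 CPM and the Het sums 24.3 to 35.3 CPM. The sum weighs the most abundant genes most, and no test was made on it because the members were chosen with results known.

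**Figure D4:**
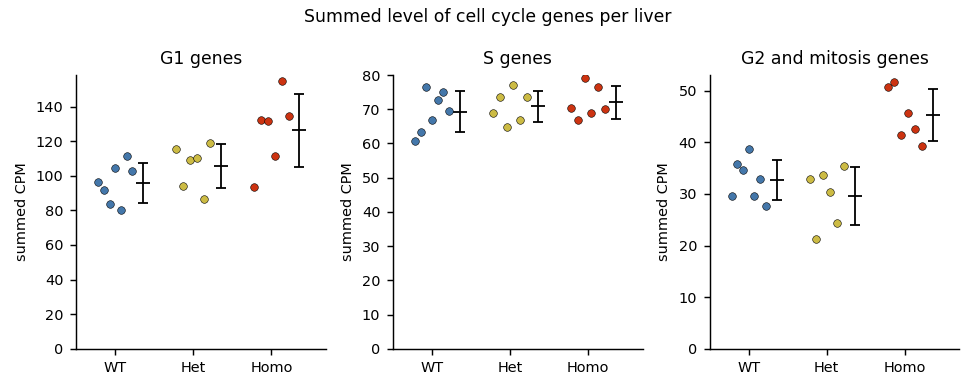
Summed CPM (y axis, linear, from 0) of the 7 G1, 11 S and 27 G2 and mitosis members in each liver (points) by genotype (x axis), with mean and SD. The mitosis sum is 39.3 to 51.6 CPM in the Homo livers and at most 38.7 CPM in the others, while the S sums overlap.

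Higher values in Homo were not shared by every mitosis gene. Of the 27 members, 19 had a higher mean in Homo than in WT and 17 had a higher mean than in both other genotypes. The liver with the highest value was a Homo liver for 14 of the 27, a WT liver for 9 and a Het liver for 4. Of the 19 livers 6 were Homo, 7 WT and 6 Het, and these counts were not made over all genes. Homo mouse 10 was highest for 7 members, Homo mouse 17 for 3 and WT mouse 12 for 6. The 6 members under the filter summed to 0.222 to 1.44 CPM in WT, 0.631 to 1.59 CPM in Het and 0.600 to 1.11 CPM in Homo, with overlapping ranges. These 6 include the genes that act at the centre of mitosis, with cyclins B1 and B2, the kinases Plk1 and Aurkb, and Cdc20 and Ube2c of the anaphase-promoting complex pathway. Fitted without a filter, 3 of the 6 had a fold change above 0 in Homo against WT, as did 19 of all 27. Among the 26277 genes then fitted 49% were above 0. The median of all 27 was 0.27, beside 0 over those genes.

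**Figure D5:**
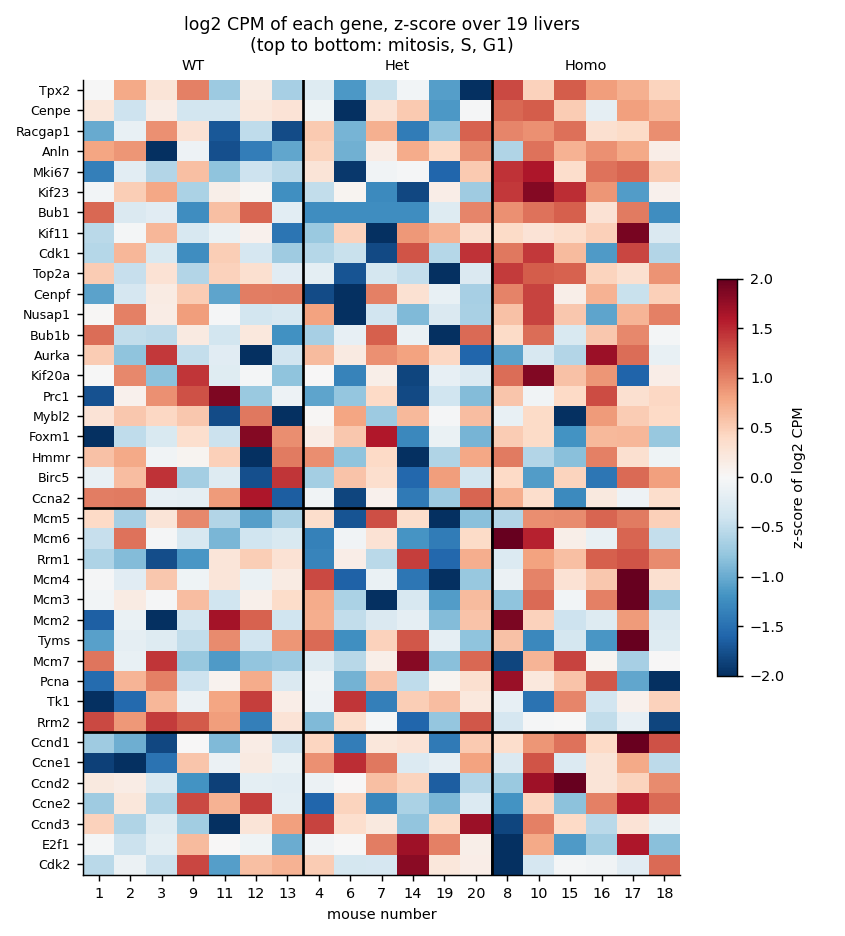
Log2 CPM of the 39 tested members (rows, by phase) in the 19 livers (columns, mouse number), as a z-score over the 19 livers of each gene; red is above and blue below the gene's mean, colours end at 2, and the rows of a phase are ordered by their Homo against WT fold change. By that order Homo livers are mostly red in the upper mitosis rows, with Ccnd1 at the top of the G1 rows.

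Het livers were set against WT to ask whether 1 altered allele goes with a difference. No member was called at the adjusted threshold, where 0.0243% of all genes tested were called, and DESeq2 and limma-voom also called 0 members. At an unadjusted p under 0.05, 1 member was higher and 4 were lower, beside 4.57% and 4.26% of all genes tested. The higher one was Ccne1, given above, and the lower ones were Tpx2, Top2a, Prc1 and Ccne2. Tpx2 ranged from 0 over 0.450 to 0.961 CPM in Het and from 0.445 over 1.22 to 3.03 CPM in WT, with a log2 fold change of -1.57 ± 0.56 (adjusted p = 0.461). Prc1, which bundles spindle microtubules, had -0.58 ± 0.25 (adjusted p = 0.525) and Ccne2 -0.37 ± 0.18 (adjusted p = 0.561). The median over the 21 tested mitosis members was -0.23, with 8 of 21 above 0. Over S members it was -0.02, with 5 of 11 above 0, and over G1 members 0.15, with 6 of 7 above 0. Of all genes tested 49.1% were above 0, with a median of -0.0043. The Het livers of mice 6 and 19 had the lowest mitosis sums of all 19 libraries, at 21.3 and 24.3 CPM.

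Homo against Het uses the same Homo libraries as Homo against WT, so the values of both stand side by side and neither backs the other. No member was called, where 0.182% of all genes tested were called. At an unadjusted p under 0.05, 13 of the 39 were higher in Homo, beside 3.94% of all genes tested. The median over the 21 tested mitosis members was 0.47, with 19 of 21 above 0, beside 0.10 over S members (7 of 11 above 0) and -0.12 over G1 members (3 of 7 above 0). Of all genes tested 49.7% were above 0, with a median of -0.0012. Tpx2 ranged from 1.65 over 2.38 to 4.29 CPM in Homo, above every Het liver, with a log2 fold change of 2.50 ± 0.58 (adjusted p = 0.106). Top2a, given above and with even counts in every library, had the smallest p. Kif23 had 1.00 ± 0.30 (adjusted p = 0.359) and Mki67 0.68 ± 0.19 (adjusted p = 0.264). DESeq2 called Top2a and Tpx2, with adjusted p-values of 0.00245 and 0.00268, and called 102 of all genes where edgeR called 30. Each of the 2 genes was called in 2 of 10 alternative settings, DESeq2 included. With 1 library left out each was called in 0 of 19 fits.

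Other genes of the same pathways were taken from lists of 29 G1 genes, 52 S genes and 71 mitosis genes outside the 45. Of the 27, 49 and 57 that were tested in Homo against WT, 16, 26 and 44 had a fold change above 0. Their medians were 0.07, 0.01 and 0.28, and 50.3% of all genes tested were above 0. In Het against WT the 57 tested genes of the mitosis list had a median of 0.11, where the mitosis members had -0.23. Of these 57, 33 were above 0, beside 49.1% of all genes tested. In Homo against Het their median was 0.10, where the members had 0.47. From this list 35 were then above 0, beside 49.7% of all genes tested. Summed over its 71 genes, the level was 198.7 to 227 CPM in WT, 206.1 to 239.6 CPM in Het and 196.3 to 247.2 CPM in Homo, so that the genotypes overlapped, unlike for the sum of the 27 members. Among the genes of these lists 1 passed the adjusted threshold in Homo against WT, where 0.48% of all genes tested were called. Ccnf fell, with a log2 fold change of -1.63 ± 0.21 (adjusted p = 0.000433). It encodes cyclin F, the substrate-binding part of a ubiquitin ligase that acts in G2. Its level ranged from 12.2 over 16.2 to 21.0 CPM in WT, from 7.92 over 10.2 to 13.6 CPM in Het and from 2.38 over 5.16 to 7.59 CPM in Homo. All Homo livers were below all WT and all Het livers, and the Het livers overlapped the lower WT livers. For cyclin F the log2 fold change was -1.01 ± 0.22 in Homo against Het (adjusted p = 0.0644) and -0.61 ± 0.21 in Het against WT (adjusted p = 0.43). Ccnf lies on chromosome 17 (24222198 to 24251484), 298 kilobases from Pkd1 on the same chromosome, and whether its level follows from that position was not tested.

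The other genes named from these lists did not pass. In G1 the proto-oncogene Myc had a log2 fold change of 1.54 ± 0.56 (adjusted p = 0.255), with 6.27 to 19.9 CPM in WT, 5.43 to 105 CPM in Het and 12.4 to 75.3 CPM in Homo, a spread over which the genotypes overlapped. The kinase gene Cdk7, whose product activates other cyclin-dependent kinases, had -0.33 ± 0.10 (adjusted p = 0.167) and Skp2, which marks the inhibitor p27 for breakdown, 0.38 ± 0.16 (adjusted p = 0.334). The partners of cyclin D1, Cdk4 and Cdk6, had -0.03 ± 0.09 and 0.08 ± 0.11. The inhibitor gene Cdkn1a had -0.19 ± 0.49, with 12.4, 6.95 and 6.45 CPM in WT mice 1 to 3 and 1.52 to 2.53 CPM in the other 4 WT livers. In S phase the repair gene Brca1 had 0.79 ± 0.25 (adjusted p = 0.18), the fork protection gene Tipin 0.40 ± 0.17 (adjusted p = 0.318) and the origin recognition gene Orc5 0.27 ± 0.12 (adjusted p = 0.341). In mitosis the chromosomal passenger gene Incenp had 0.37 ± 0.11 (adjusted p = 0.151) and Ect2, which starts the cleavage furrow with Racgap1, 1.01 ± 0.30 (adjusted p = 0.162).

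Markers of the cells that a liver library can hold were measured beside these values. Of the 8 bile duct markers, 6 had a fold change above 0 in Homo against WT, beside 50.3% of all genes tested. The keratin genes Krt7 (log2 fold change 3.06 ± 0.40, adjusted p = 0.00043) and Krt19 (2.50 ± 0.39, adjusted p = 0.00305) rose, where 0.48% of all genes tested were called. In Homo against Het these 2 and Epcam were higher, with adjusted p-values of 0.00575, 0.00496 and 0.0437, where 0.182% of all genes tested were called. The summed bile duct markers ranged from 73.0 to 119 CPM in WT, 81.7 to 120.4 CPM in Het and 107 to 146.7 CPM in Homo. Krt7 and Krt19 were at 0 in no library, Cftr was at 0 in 2 libraries and Cldn7 in 1. All 4 T and NK cell markers that could be tested had a fold change above 0 in Homo against WT, with 0 called, and the sum of the list of 8 ranged from 2.18 to 4.44 CPM in WT, 1.88 to 3.22 CPM in Het and 2.66 to 6.49 CPM in Homo. Homo mouse 10 had the highest sum of mitosis members, at 51.6 CPM. It also had the highest sums of T and NK cell (6.49 CPM), macrophage (273.4 CPM) and neutrophil (37.8 CPM) markers. Homo mouse 8 had a mitosis sum of 50.8 CPM. Its sums of these markers were 2.89, 265.5 and 21.3 CPM, each within the WT range. The summed macrophage markers ranged from 220 to 270.2 CPM in WT, 187.9 to 234.7 CPM in Het and 187.3 to 273.4 CPM in Homo, and the stellate cell and fibroblast markers from 289.8 to 469.2, 324.6 to 376.8 and 345.7 to 400.9 CPM. The part of any of these cell types in the values of Ccnd1, Mki67 or the mitosis sum was not tested.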

How the data were processed

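RNA of 19 livers was measured with 1 library each (7 WT, 6 Het, 6 Homo), prepared with a NuGen Ovation mouse kit, per the labels' protocols. The authors deposited whole-number counts per gene symbol with no normalization. The submitters' processing notes name STAR 2.7.2b, featureCounts 1.6.4 and GRCm38; for settings, annotation and strand nothing is stated in what was used. Counts were fitted in R 4.3.3 with edgeR 4.0.16 (TMM, filterByExpr by genotype, quasi-likelihood F test). A single fit over the 19 libraries had a term for genotype, and the 3 comparisons share libraries. Benjamini-Hochberg adjusted p-values over all 16463 genes tested, two-sided, were called under 0.05, and every adjusted p in the text is from this test unless another tool is named. The SE is |log2 fold change|/√F. CPM use TMM library sizes, and log2 CPM a prior count of 2. Positions and exon lengths are from GENCODE M21, and promoters and motif matches were read with Python 3.11.15.

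The 45 members and the lists of other pathway genes and cell type markers were chosen with earlier results of these data known. Ranges over the livers are given for members called in a comparison and the 3 with the smallest p per phase in Homo against WT. Ccnd3 is given by its mean and SD. The other lists give their called genes, the 3 with the smallest p, and Cdk4, Cdk6, Cdkn1a and Ccnf. Tpx2 values, the Oraov1 row and the distance of Ccnf from Pkd1 were added after values were seen. Whether mice of a genotype are separate beyond their labels is not given, so p-values measure the spread between these libraries. On simulated counts of 16463 genes for Homo against WT, the test recovered 38.8% of genes changed 1.5-fold, 74.6% of those changed 2-fold and 95.5% of those changed 4-fold, and 5.44% of the genes it called had been left unchanged. The changed genes were drawn at random from all 16463, so recovery for the members, many with low counts, was not measured. Alternatives were DESeq2 1.42.0, limma-voom (limma 3.58.1), other size factors, 2 other filters, only the genotypes compared, the mouse number as a covariate, subsets of mouse numbers, an adjusted p under 0.1, and each library left out in turn.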

Additional observations from a re-analysis of the deposited data

Results flagged for a closer look

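Of 126 groups of livers, 9 held a liver far from the others of its genotype, and chance flags about 1 in 20 groups. Cdk2 was lowest in Homo mouse 8, at 5.063 CPM with the other Homo livers at 8.05 to 10.5 CPM. Rrm2 was lowest in WT mouse 12, at 1.561 CPM beside 2.09 to 2.55 CPM, and in Homo mouse 18, at 1.436 CPM beside 1.83 to 1.99 CPM. Aurka was lowest in Het mouse 20, at 0.988 CPM beside 1.86 to 2.41 CPM. Nusap1 was lowest in Homo mouse 16, at 0.4924 CPM beside 1.11 to 1.64 CPM, and Kif11 was highest in Homo mouse 17, at 0.7797 CPM beside 0.311 to 0.435 CPM. Bub1 in Homo mouse 18, Mybl2 in Homo mouse 15 and Hmmr in WT mouse 12 had 0 counts, beside 0.174 to 0.474, 0.387 to 1.16 and 0.293 to 0.837 CPM in the other livers of their genotypes.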

How the results depend on the processing

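For Homo against WT, the number of the 39 tested members called was 0 with no filter, with a covariate for mouse number, on dropping mice 1 to 3 and among mice 8 to 13 only, and 2 (Ccnd1 and Mki67) with DESeq2, in the fit of the 2 genotypes alone and at an adjusted p under 0.10; leaving out single libraries it was 0 to 2. For Homo against Het it was 2 with DESeq2 (Top2a and Tpx2), 1 with the covariate (Tpx2, adjusted p = 0.0495) and 1 at an adjusted p under 0.10 (Top2a). Without a filter Ccnd1 had a log2 fold change of 1.05 with an adjusted p of 0.0535. The mitosis median was 0.53 in Homo against WT among mice 8 to 13. With a filter of 1 CPM in 6 libraries it was 0.68 in Homo against Het. That value covers fewer members, because low ones such as Bub1 did not pass this filter. The S median was 0.0656 in Homo against WT with the covariate and 0.0443 in Homo against Het among mice 14 to 20; leaving out single libraries it ran from 0.0472 to 0.138 in Homo against WT, -0.0383 to 0.0452 in Het against WT and 0.0269 to 0.125 in Homo against Het. Mki67 in Het against WT, 0.04, changed sign with limma-voom (-0.00984), without mice 1 to 3 (-0.0442) and between single libraries left out (-0.0570 to 0.160). The cause was not tested. Ccnf in Homo against WT was called in every setting run except among mice 8 to 13 only (-2.26, adjusted p = 0.0707). Over all genes, Homo against WT called 79 in edgeR, 305 with DESeq2, 176 at an adjusted p under 0.10, 38 with the covariate, 25 without mice 1 to 3, 2 among mice 8 to 13 and 35 to 122 with single libraries left out. Homo against Het called 30 in edgeR, 102 with DESeq2, 51 at an adjusted p under 0.10, 16 with limma-voom, 0 among mice 14 to 20 and 9 to 34 with single libraries left out, and Het against WT 4 in edgeR, 28 with DESeq2 and 4 to 7 with single libraries left out. Depth limits the 6 mitosis members with 0 to 20 counts per library. It also limits tested mitosis members that enter the medians, among them Bub1 (0 to 18 counts), Foxm1 (4 to 18), Hmmr (0 to 28), Kif11 (2 to 29) and Mybl2 (0 to 47). No paired analysis was possible because replicate numbers were given in accession order and no mouse number occurs in 2 genotypes.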
